A study of Mus musculus with 6 samples.

Results

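Among the genes of the cytosolic ribosome, 76 of the 77 standard ones differed by less than 0.25 on the log2 scale between the femurs of running and of sedentary mice. The 1 member called different, Rps27rt, is a copy whose coding sequence is identical to that of its parent gene Rps27. The members were chosen by symbol: Rpl or Rps followed by a digit, with Rplp0, Rplp1, Rplp2 and Rpsa, and without pseudogene symbols containing -ps and the S6 kinases. The rule found 94 of the 55484 genes in the deposited table, 55 named for the large and 39 for the small subunit. Of these, 77 belong to the standard set of ribosomal proteins (46 large, 31 small). The other 17 are paralogs, retrocopies and Rps19bp1, which is named for binding a ribosomal protein and is not a subunit.

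The groups were ND/WCR, 3 libraries from mice housed singly with free access to a running wheel, and ND/SED, 3 libraries from mice housed singly without a wheel. All were male wild-type C57BL/6 mice on normal chow, 6 weeks old at the start, kept so for 6 weeks and 12 weeks old when the femoral bone was taken. The comparison asks how voluntary running alters the transcripts of bone. For each gene the authors deposited a pooled FPKM for either group, that is, fragments per kilobase scaled to library depth. An interval around it is also listed, whose level no source used here states. Values of single mice were not analysed here, which leaves the spread between mice unknown. A gene is called where the q-value in the authors' deposited table lies under 0.05.

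Each cytosolic ribosome joins a large subunit, which forms the peptide bond, and a small subunit, which reads the mRNA. Most ribosomal proteins are present once per ribosome, so cells make them in similar amounts, and their mRNAs are among the most abundant in growing cells. These mRNAs typically begin with a C followed by a run of pyrimidines, the TOP motif (terminal oligopyrimidine), through which mTOR signalling and LARP1 control their translation. Marrow holds rapidly dividing blood precursors, and in humans loss of 1 copy of several of these genes impairs red cell formation. Ribosomal protein genes have also left many processed copies across mammalian genomes, made by reverse transcription of their mRNAs.

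The sequences that matter most here are those of Rps27, which encodes a zinc-binding protein of the small subunit, and of its copy Rps27rt. Rps27 lies on chromosome 3 (90212522 to 90213651, minus strand, GRCm38). Rps27rt lies on chromosome 9 (114982366 to 114982739, minus strand), inside the span of Osbpl10 on the plus strand. The coding sequence of 255 bases is the same in both at every base, and over the transcripts an unbroken stretch of 341 bases was identical, of 345 bases in Rps27 and 374 in Rps27rt. The third relative, Rps27l, is also 255 bases long but differs at 61 of them, which are shown in capitals.
Rps27 and Rps27rt: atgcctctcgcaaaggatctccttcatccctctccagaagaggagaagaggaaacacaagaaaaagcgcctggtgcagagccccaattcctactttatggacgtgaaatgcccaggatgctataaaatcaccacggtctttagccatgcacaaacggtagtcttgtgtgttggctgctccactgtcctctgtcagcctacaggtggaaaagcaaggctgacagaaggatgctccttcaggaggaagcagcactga
Rps27l: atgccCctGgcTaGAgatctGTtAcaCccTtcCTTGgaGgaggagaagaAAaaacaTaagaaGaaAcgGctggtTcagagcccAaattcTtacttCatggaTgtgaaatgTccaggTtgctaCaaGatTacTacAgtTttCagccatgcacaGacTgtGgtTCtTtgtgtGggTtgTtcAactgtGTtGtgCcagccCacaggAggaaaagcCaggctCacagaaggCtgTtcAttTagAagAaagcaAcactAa

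The start sites show how far the match between copy and parent extends. RefSeq promoters (GRCm38.p6) are given from 25 bases before to 25 bases after the start, and capitals mark the longest run that both windows share, 24 bases. In Rps27 (chr3:90213624-90213673, minus strand) the run starts at base 2 of the transcript, and in Rps27rt (chr9:114982715-114982764, minus strand) at base 1.
Rps27: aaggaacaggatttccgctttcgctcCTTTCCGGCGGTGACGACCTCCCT
Rps27rt: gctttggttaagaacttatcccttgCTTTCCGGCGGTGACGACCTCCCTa

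The pyrimidine run at the start was more frequent among these promoters than among promoters in general. A C at the annotated start followed by at least 4 bases that are each C or T was found in 13 of the 57 standard genes with a RefSeq promoter (22.8%), against 3.01% of 27025 genes with one. By subunit it was found in 7 of 34 large and 6 of 23 small subunit genes. None of 69 mitochondrial ribosomal protein genes had it. Allowing the run to begin within 20 bases of the annotated start gave 80.7% of the standard genes and 53.3% of all genes. The search read the transcript strand only, and annotated starts can miss the true start by a few bases. Below, capitals mark the longest such run in the same window for 3 members: Rps6 (chr4:86857343-86857392, minus strand), whose protein is phosphorylated downstream of mTOR, Rpl7a (chr2:26910782-26910831, plus strand) and Rps24 (chr14:24490653-24490702, plus strand). Of these, only Rps6 was among the 13 with the run at the annotated start. Rpl7a and Rps24 met only the wider search within 20 bases.
Rps6: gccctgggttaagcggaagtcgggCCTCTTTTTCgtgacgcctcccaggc
Rpl7a: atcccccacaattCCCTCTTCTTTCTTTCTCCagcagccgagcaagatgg
Rps24: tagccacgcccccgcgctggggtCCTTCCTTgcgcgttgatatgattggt

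Summed over the members, these genes held 12.3% of the total FPKM in ND/WCR and 12.6% in ND/SED. That total leaves out 5 genes with the status HIDATA, so these are shares of the remaining genes. Large subunit genes held 6.94% in ND/WCR and 7.02% in ND/SED, and small subunit genes 5.41% in ND/WCR and 5.57% in ND/SED. Of the 100 genes with the highest FPKM among those tested, 49 were members in ND/WCR and 49 in ND/SED. The lowest standard gene by level stood at percentile 97.3 of tested genes in ND/WCR and 97.6 in ND/SED.

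Within this high range the standard genes were not level: the highest exceeded the lowest 13.2-fold in ND/WCR and 11.1-fold in ND/SED. Among large subunit genes the highest were Rpl13a (2288 FPKM in ND/WCR, 2253 in ND/SED), Rpl41 (2129 and 2152 FPKM), which encodes a very short basic peptide, and the stalk gene Rplp1 (2118 and 2101 FPKM). The lowest were Rpl21 (174 FPKM in ND/WCR, 202 in ND/SED), Rpl7a (218 and 274 FPKM) and Rpl17 (246 and 219 FPKM). Among small subunit genes Rps29 (1724 FPKM in ND/WCR, 2030 in ND/SED), Rps24 (1679 and 1690 FPKM) and Rps15 (1518 and 1478 FPKM) were highest. Rps20 (359 FPKM in ND/WCR, 375 in ND/SED) and Rps7 (521 and 524 FPKM) were lowest. These are levels per kilobase of transcript.

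The small subunit genes had the higher median level in both groups. In ND/WCR the median was 695 FPKM for the 46 large and 997 FPKM for the 31 small subunit genes, and in ND/SED 722 and 1013 FPKM. The ranges overlapped almost wholly, and 14 large and 14 small subunit genes stood at 1000 FPKM or more in ND/WCR, against 15 and 16 in ND/SED. When the FPKM of near-identical copies was added to each gene, the medians were closer, at 867 FPKM (large) and 1058 FPKM (small) in ND/WCR, and 886 and 1101 FPKM in ND/SED. Coding length was alike in both sets, with medians of 478.5 bases (large, from 78 in Rpl41 to 1260 in Rpl4) and 456 bases (small, from 171 in Rps29 to 888 in Rpsa). Across the 77 genes the rank correlation of coding length with mean level was -0.10, a description only.

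**Figure D1:**
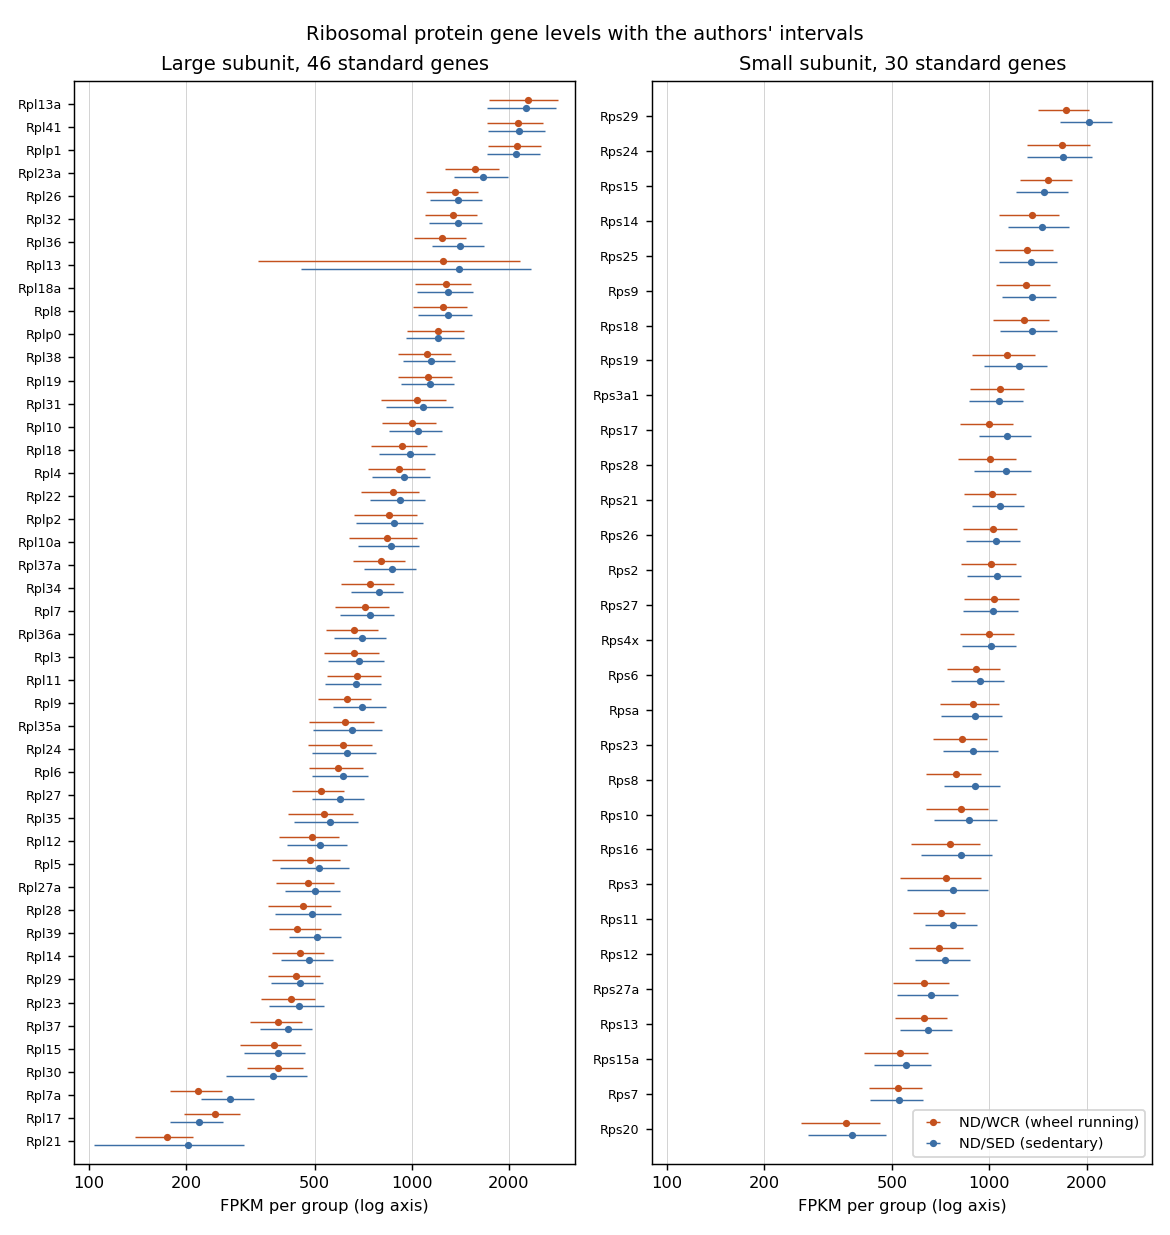
Group FPKM (log axis) of 46 large and 30 small subunit genes of the standard set, sorted by mean level, with ND/WCR in orange above ND/SED in blue; lines are the authors' interval. The intervals of ND/WCR and ND/SED overlapped for every gene drawn, and the interval of Rpl13 is far wider than the rest.

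Between running and sedentary mice almost no member was called. Of the 92 members the authors tested, 1 was called, Rps27rt, lower in ND/WCR, which is 1.09% of the members against 0.941% of all 15508 tested genes (0.497% lower). None of the 53 tested large subunit members was called. At an unadjusted p under 0.05 there were 5 members, or 5.43%, against 5.65% of all tested genes. All 5 were lower in ND/WCR, where 2.22% of tested genes were lower at that threshold. The share of called members was thus near the background. At an unadjusted p under 0.05 the share of members lower, 5.43% against 2.22%, was above it, a difference that was not tested. The authors' intervals were apart for 0 of the 92 members, Rps27rt included, and for 0.574% of all tested genes, so 0 is near the background.

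Rps27rt had 732 FPKM (interval 584 to 880) in ND/WCR, against 1017 FPKM (827 to 1208) in ND/SED. The log2 fold, ND/WCR over ND/SED on the log2(FPKM + 0.1) scale as for every fold here, was -0.47, and q in the authors' deposited table was 0.00718. Its parent Rps27 had 1033 FPKM (834 to 1232) in ND/WCR and 1028 FPKM (828 to 1228) in ND/SED, a log2 fold of 0.0069. Since 341 bases are shared without a difference, fragments from that stretch could be given to either gene. No source used here states how the authors treated fragments that match several genes. The sum of both genes was 1765 FPKM in ND/WCR and 2046 FPKM in ND/SED, a log2 fold of -0.21. Rps27l, which differs in sequence and is known as a p53 target, stood at 199 FPKM in ND/WCR and 213 FPKM in ND/SED and was not called. Osbpl10, whose span holds Rps27rt, had 0.475 FPKM in ND/WCR and 0.320 FPKM in ND/SED.

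**Figure D2:**
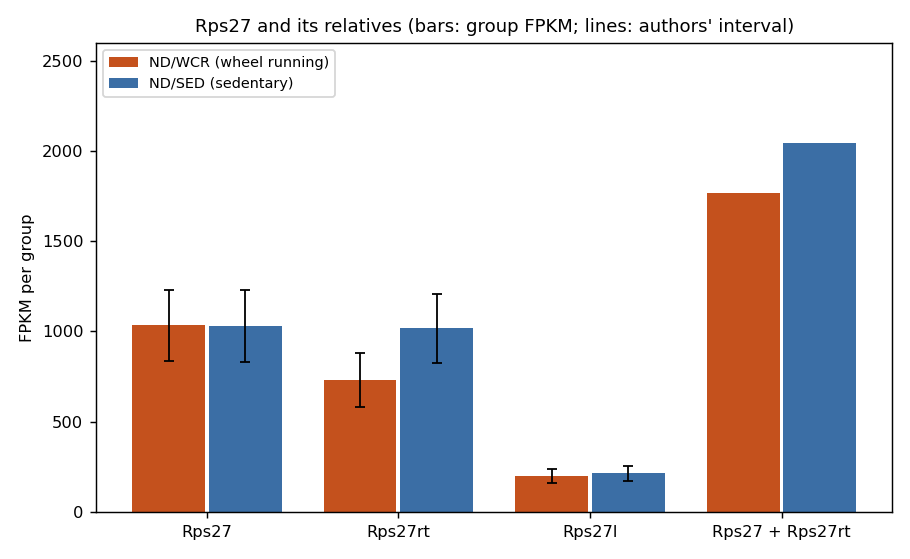
FPKM per group for Rps27, Rps27rt, Rps27l and the sum of the first pair, ND/WCR (orange) left of ND/SED (blue); black lines are the authors' interval, which does not exist for the sum. Rps27 is level between groups, Rps27rt is lower in ND/WCR at 732 against 1017 FPKM, and their sum is 1765 against 2046 FPKM.

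The other members with an unadjusted p under 0.05 did not pass the threshold on q. Rpl7a had 218 FPKM in ND/WCR and 274 FPKM in ND/SED (log2 fold -0.33, q = 0.148 in the authors' deposited table). With the FPKM of its 31 near-identical copies added, the log2 fold was -0.22. Rps29, a small zinc-binding subunit near the mRNA path, had 1724 FPKM in ND/WCR and 2030 FPKM in ND/SED (log2 fold -0.24, q = 0.674 in the authors' deposited table). Rpl39, which lines the tunnel through which the new chain leaves, had 441 FPKM in ND/WCR and 510 FPKM in ND/SED (log2 fold -0.21, q = 0.882 in the authors' deposited table). Its copy Rpl39-ps, 151 bases long and not tested by the authors, was listed at 844 FPKM in ND/WCR and at 0 in ND/SED. Adding that uncertain value turned the log2 fold to 1.33. Rpl7l1, a paralog of Rpl7, had 32.5 FPKM in ND/WCR and 44.5 FPKM in ND/SED (log2 fold -0.45, q = 0.726 in the authors' deposited table). In each of these 4 genes the intervals overlapped.

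Below the threshold the standard genes leaned slightly to the lower side. The median log2 fold was -0.07 over the 77, with 68 lower and 9 higher in ND/WCR, and all but Rpl7a lay within 0.25 of no change. Among all 15508 tested genes the median was -0.0067 and 51.8% were lower. Among 745 tested genes outside the members with a mean FPKM of at least 100, the median was -0.04 and 65.1% were lower. The SD of the log2 folds across genes was 0.07 for the standard genes and 0.19 for those other abundant genes. The other genes were not matched by level. Their median was 163 FPKM in ND/WCR and 166 FPKM in ND/SED, against 838 and 889 FPKM for the standard genes. When both groups were rescaled to the same total, which adds 0.04 to every log2 fold, 62 of the 92 tested members were lower and 30 higher.

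Large and small subunit genes overlapped in this comparison. The median log2 fold was -0.06 for the 46 large (40 lower, 6 higher) and -0.07 for the 31 small subunit genes (28 lower, 3 higher), with SDs across genes of 0.08 and 0.06. After rescaling to the same total the medians were -0.02 for both, with 33 of 46 large and 21 of 31 small subunit genes lower. The large subunit genes ran from -0.33 (Rpl7a) to 0.16 (Rpl17). Rpl17, also of the exit tunnel, had 246 FPKM in ND/WCR and 219 FPKM in ND/SED, with overlapping intervals. The small subunit genes ran from -0.24 (Rps29) to 0.04 (Rps15). The 13 genes with the pyrimidine run at the annotated start had a median log2 fold of -0.06 and the 44 without it one of -0.07.

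**Figure D3:**
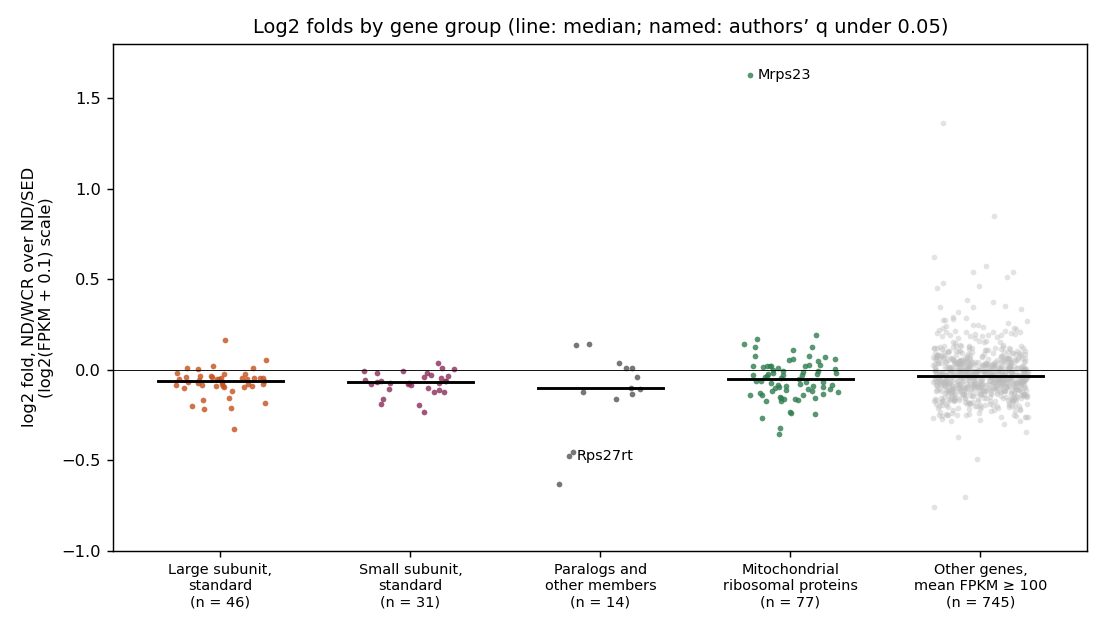
Log2 fold, ND/WCR over ND/SED, of single genes in 5 groups; black lines are medians and names mark called genes among the ribosomal groups. The standard genes sit in a narrow band just under 0 (SD 0.07), narrower than other abundant genes (SD 0.19), which were not matched by level. Rps12l1, at 0 FPKM in ND/SED, is not drawn, and 4 of the 745 other genes lie below the axis.

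No standard gene was called in any role within the ribosome, which is near the background of 0.941% over all tested genes. Differences between roles were not tested. In the stalk, which recruits the elongation factors, Rplp0 had 1209 FPKM in ND/WCR and 1205 FPKM in ND/SED, Rplp1 stood level as given above, Rplp2 had 851 and 879 FPKM, and Rpl12 at its base 492 and 520 FPKM. Rpl5 and Rpl11, which carry the 5S ribosomal RNA and can bind Mdm2, were at 483 and 676 FPKM in ND/WCR, against 514 and 670 FPKM in ND/SED. Of 8 genes lining the exit tunnel or its rim, 7 had a negative log2 fold, from -0.21 in Rpl39, and Rpl17 a positive one. That is near the 88.3% lower over all 77 standard genes. Rpl4, a tunnel protein, had 916 FPKM in ND/WCR and 945 FPKM in ND/SED.

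Around the mRNA channel, Rps2 had 1010 FPKM in ND/WCR and 1053 FPKM in ND/SED, and Rps3 had 734 and 771 FPKM. At the decoding site, Rps23 had 825 FPKM in ND/WCR and 889 FPKM in ND/SED, and Rps15 had 1518 and 1478 FPKM. Rps6 had 910 FPKM in ND/WCR and 932 FPKM in ND/SED. Rps27a, made as a fusion to ubiquitin, had 626 FPKM in ND/WCR and 658 FPKM in ND/SED. Of 10 genes mutated in Diamond-Blackfan anaemia or lost in a related human marrow disorder, 9 had a negative log2 fold (median -0.08). That is near the 88.3% lower over all 77 standard genes, whose median was -0.07. None of the 10 was called, near the background of 0.941% over all tested genes. Rps19, the first of the 10 to be linked to that anaemia, had 1131 FPKM in ND/WCR and 1232 FPKM in ND/SED. The 4 X-linked genes (Rps4x, Rpl10, Rpl36a and Rpl39) had log2 folds from -0.21 to -0.02.

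Rpl13 was the least certain standard gene. It had 1247 FPKM with an interval of 333 to 2161 in ND/WCR, and 1398 FPKM with an interval of 455 to 2342 in ND/SED. The interval reached 73.3% of the FPKM to either side in ND/WCR and 67.5% in ND/SED, where the median over the standard genes was 19.2% in ND/WCR and 19.4% in ND/SED. In the deposited table its locus spans 4435 kb, although the gene covers bases 123102350 to 123105244 of chromosome 8 in GENCODE vM21.

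The 17 members outside the standard set were mostly low. Rpl3l, a paralog of Rpl3 that in mice is made in striated muscle, had 8.45 FPKM in ND/WCR and 7.68 FPKM in ND/SED, against 663 and 686 FPKM for Rpl3. Skeletal muscle markers in the same tissue summed to 2032 FPKM in ND/WCR and 1708 FPKM in ND/SED, all 10 with a positive log2 fold and 3 called higher (0.445% of all tested genes were called higher); their part in the value of Rpl3l was not tested. Rpl39l had 3.08 FPKM in ND/WCR and 3.45 FPKM in ND/SED, and Rpl10l, known from testis, was listed at 0 in both groups and not tested. Rpl22l1, a paralog of Rpl22, had 180 FPKM in ND/WCR and 194 FPKM in ND/SED, against 874 and 922 FPKM for Rpl22. Rpl36al had 312 FPKM in ND/WCR and 310 FPKM in ND/SED. Their coding sequences match the partner at 73.3% (Rpl3l), 85.3% (Rpl39l), 84.8% (Rpl10l), 67.5% (Rpl22l1) and 87.9% (Rpl36al) of aligned bases.

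A further 7 symbols are processed pseudogenes in GENCODE vM21. Among them Rpl37rt stood at 430 FPKM in ND/WCR and 442 FPKM in ND/SED, above Rpl37 itself at 386 and 415 FPKM. Rps3a2 had 47.4 FPKM in ND/WCR and 43.0 FPKM in ND/SED, Rpl6l had 18.1 and 18.0 FPKM, Rps4l 14.2 and 13.8 FPKM, and Rps3a3 7.94 and 8.65 FPKM. Rps12l1 was at 0.830 FPKM in ND/WCR and listed at 0 in ND/SED, and Rpl32l, not tested, at 0.528 FPKM in ND/WCR and 0 in ND/SED. Rps23rg1, a retrogene whose product is not a ribosomal protein, had 0.451 FPKM in ND/WCR and 0.753 FPKM in ND/SED. Rps19bp1 had 13.7 FPKM in ND/WCR and 15.1 FPKM in ND/SED.

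Most members have near-identical copies in the genome. The median share of the summed FPKM of a standard gene and its copies that lay at the copies was 8.85% in ND/WCR and 7.77% in ND/SED. With a copy defined as another annotated gene whose transcript matches at least 90% of the coding sequence at 95% identity or more, 74 of the 77 standard genes had at least 1, with a median of 6 and a maximum of 56 (Rpl21). Outside the members there were 551 such genes, of which 185 had a mean FPKM of at least 1. They summed to 10880.5 FPKM in ND/WCR and 10121 FPKM in ND/SED. Without Rpl39-ps, left out after its value was seen, the sum was 10037 FPKM in ND/WCR and 10121 FPKM in ND/SED, so that 1 untested gene sets the direction. Fragments of the parent that match a copy as well could be given to the copy, so these values are uncertain.

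The 3 lowest large subunit genes were among those with many copies: Rpl21 with 56, Rpl7a with 31 and Rpl17 with 20. The 17 standard genes with 10 copies or more had a median mean level of 666 FPKM, and the 57 with 1 to 9 copies 931 FPKM. The 3 without a copy had a median of 900 FPKM. Across the 77 genes the rank correlation of copy number with mean level was -0.23, and with the log2 fold -0.09; both are descriptions across genes. Copies held over 25% of the summed FPKM for 19 standard genes in ND/WCR and 16 in ND/SED. They held over 50% for 5 genes in ND/WCR (Rpl23, Rpl39, Rpl17, Rpl21 and Rpl37) and for 4 in ND/SED, where Rpl39 was the exception. For Rpl39 the share in ND/WCR rests on Rpl39-ps, which the authors did not test. Rpl23 had 422 FPKM in ND/WCR and 447 FPKM in ND/SED, beside its copy Gm9794 (99.8% identical over the coding sequence) at 992 and 995 FPKM. With copies added, the median log2 fold was -0.05 for the large and -0.06 for the small subunit genes, and 68 of 77 were lower.

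**Figure D4:**
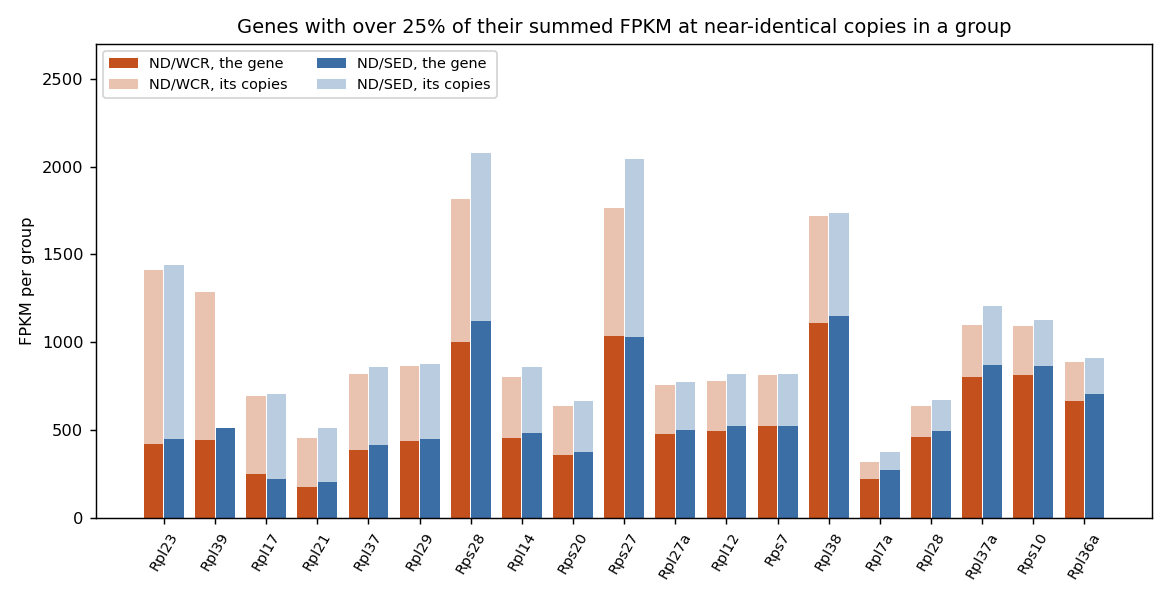
FPKM per group of the 19 standard genes with over 25% of their summed FPKM at near-identical copies in at least 1 group; solid bars are the gene, pale bars its copies, ND/WCR (orange) left of ND/SED (blue). For Rpl23, Rpl17, Rpl21 and Rpl37 the copies exceed the gene in both groups, and for Rpl39 they do so in ND/WCR and are at 0 in ND/SED. The pale bar of Rpl39 rests on Rpl39-ps, which the authors did not test.

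In 4 lists of other translation genes no gene was called, which is near the background of 0.941% over all tested genes. Of 18 other mRNAs with a known TOP motif, none was called and 15 had a negative log2 fold (median -0.05). Eef1a1, which brings aminoacyl-tRNA to the ribosome, had 2801 FPKM in ND/WCR and 2867 FPKM in ND/SED. Fau, which encodes a small subunit protein fused to a ubiquitin-like protein, had 1126 FPKM in ND/WCR and 1176 FPKM in ND/SED. Of 37 translation factors none was called (33 lower, median -0.07). Of 56 genes of ribosome biogenesis none was called and 50 had a negative log2 fold, with a median of -0.13; its difference from that of the ribosomal protein genes was not tested. Within it Npm1, a nucleolar chaperone, had 292 FPKM in ND/WCR and 337 FPKM in ND/SED, and Ddx21, an RNA helicase of the nucleolus, had 34.2 and 41.7 FPKM. Of 16 genes of mTOR signalling and TOP control none was called (median -0.0093). Mtor had 9.88 FPKM in ND/WCR and 9.06 FPKM in ND/SED, and Larp1 had 24.9 and 27.5 FPKM.

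The mitochondrial ribosomal protein genes, encoded in the nucleus for the separate ribosome of that organelle, were far less abundant. Their median was 27.5 FPKM in ND/WCR and 28.5 FPKM in ND/SED over 77 tested genes, and their median log2 fold was -0.05, with 52 lower and 25 higher. At a background of 0.941% called and 0.445% called higher over all tested genes, 1 of the 77 was called. It was Mrps23, higher at 19.6 FPKM in ND/WCR against 6.26 FPKM in ND/SED (log2 fold 1.63, q = 0.0133 in the authors' deposited table). Whether the cytosolic and mitochondrial sets differ was not tested.

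The RNA came from a mixture of cells, in which fewer cells of a type and less RNA per cell cannot be told apart. The highest of the 10 bone markers was Bglap (osteocalcin), at 3184 FPKM in ND/WCR and 3157 FPKM in ND/SED. Ibsp (bone sialoprotein) followed at 666 and 562 FPKM, and the median of the 10 was 84.1 and 66.1 FPKM. The 10 osteocyte and osteoblast markers summed to 4428 FPKM in ND/WCR and 4186 FPKM in ND/SED, with 9 of 10 higher, 2 called higher and 1 called lower. Neutrophil markers summed to 46237 FPKM in ND/WCR and 54258 FPKM in ND/SED, with all 10 lower and none called, and B lineage markers to 389 and 432 FPKM, again with all 10 lower and none called. Erythroid markers summed to 10535.5 FPKM in ND/WCR and 10055 FPKM in ND/SED, with 5 of 10 lower and a median log2 fold of 0.0059. Of that sum Hbb-bt held 4870 FPKM in ND/WCR and 4381 FPKM in ND/SED. Cell cycle genes summed to 1363 and 1390 FPKM, 6 of 10 lower. Adipocyte markers summed to 509 FPKM in ND/WCR and 353 FPKM in ND/SED, with 9 of 9 tested members higher and 3 called higher. Beside these marker counts, 0.445% of all tested genes were called higher and 0.497% lower. Of all these markers none was at 0, and Lep was lowest at about 0.1 FPKM. Their part in the small downward lean of the ribosomal protein genes was not tested.

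**Figure D5:**
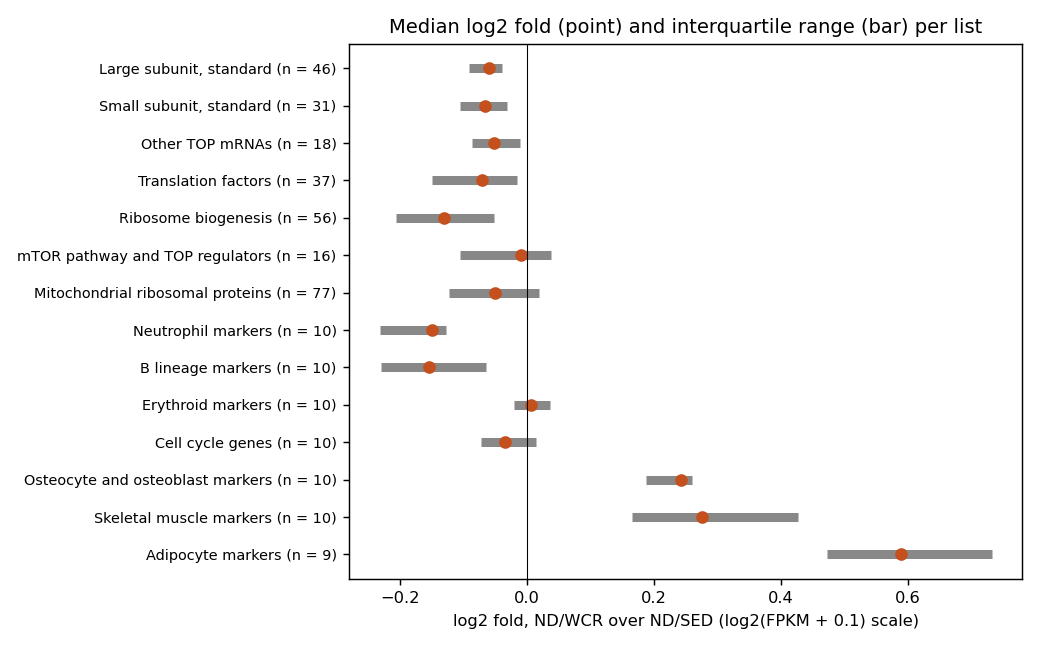
Median log2 fold, ND/WCR over ND/SED (point), and interquartile range over the tested genes of each list (bar). The standard genes lie at -0.06 (large subunit) and -0.07 (small subunit), ribosome biogenesis at -0.13, neutrophil markers at -0.15 and adipocyte markers at 0.59.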

How the data were processed

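Femoral RNA was selected for polyadenylation and turned into directional libraries with an NEBNext Ultra kit, as the labels' protocols say. Tools named in the submitters' processing notes, with no role given, are Cufflinks 2.2.1, HISAT2 2.2.1, Trimmomatic 0.39 and SAMtools 1.10, and the build is GRCm38. Strand use in counting was not given in the sources used here. Per the file headers, the layout is that of Cuffdiff output. Each gene has a pooled FPKM for either group with interval bounds, all from the authors. The authors' comparison adds a log2 fold, a test score, a p-value and its adjusted form, the q-value. The tables hold 0 columns of single libraries, so q under 0.05 took the place of a test between mice.

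Log2 folds were recomputed from FPKM with a pseudocount of 0.1, and totals leave out 5 genes with the status HIDATA. The members and lists were chosen with earlier results of these data known. Named members are those with p under 0.05, the extremes of level and fold of each subunit, paralogs and role lists. Gm9794, Gm10076, Rpl39-ps, Rpl13, Ddx21, Mtor, Larp1, Rpl38-ps2 and Rpl21-ps15 were chosen after their values were seen. Gene spans come from GENCODE vM21 (77 of 77 standard genes matched by Ensembl ID), copies from BLAST+ 2.17.0, identities from Biopython 1.88 alignments and promoters from RefSeq. The median log2 folds and the recomputed q-value adjustment were tested on simulated data, and the member rule on known symbols. The counts of called, lower and higher genes were not. Values of 2 single genes are not reported here, though counts and medians include them.

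The lowest FPKM values of single-exon genes longer than 1500 bases (lengths shortened by 250) were split at their largest gaps into 3 steps per group. The number of steps was set beforehand to the 3 libraries, and values outside a set range were left out. Taking a group value as the mean of 3 scaled libraries, the steps match about 13800000, 17200000 and 17300000 fragments in ND/WCR and 14300000, 14500000 and 16400000 in ND/SED. At that depth 1 FPKM equals about 48.3 fragments per kilobase in ND/WCR and 45.2 in ND/SED.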

Additional observations from a re-analysis of the deposited data

Results flagged for a closer look

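A pair of copies of member genes gave values in ND/WCR above those in ND/SED, while over all 217 tested copies 101 were lower and 116 higher. Rpl39-ps, a processed pseudogene of 151 bases on chromosome 15 (102635038 to 102635188, GRCm38) and 99.3% identical to the coding sequence of Rpl39, was listed at 844 FPKM in ND/WCR and at 0 in ND/SED, and was not tested by the authors. Its interval ran from 842 to 845 FPKM, far narrower in proportion than that of Rpl39. Gm10076, annotated as a lincRNA on chromosome 14 (105681828 to 105682211) and identical over its match to the coding sequence of Rpl41, had 182 FPKM (140 to 224) in ND/WCR and 118 FPKM (88.5 to 148) in ND/SED. It was the 1 copy called among 217 tested (log2 fold 0.62, q = 0.00718 in the authors' deposited table). Over all tested genes 0.941% were called, 0.445% of them higher in ND/WCR as a share of those tested. The intervals of Gm10076 overlapped.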

How the results depend on the processing

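No paired analysis was possible because each group has a single pooled FPKM. Leaving out single libraries and limma were not run for the same reason. The 1 called member stayed the count with q under 0.01, with q under 0.1 and with q recomputed over genes of FPKM of at least 1. An unadjusted p under 0.05 gave 5 members, 3 of the large and 2 of the small subunit. The count was 0 when separate intervals, an absolute log2 fold of at least 1, or the standard set alone was required, and 0 for the small subunit under each of these, since Rps27rt is no standard gene and meets neither other rule. The median log2 fold ranged from -0.07 to -0.02 over all members, from -0.06 to -0.01 for the large and from -0.07 to -0.03 for the small subunit; large minus small ranged from 0.0052 to 0.018. Adding copies to each gene was chosen after seeing the data. The members' share of total FPKM ranged from 12.0% to 13.3% in ND/WCR and from 12.2% to 13.4% in ND/SED. Genes with the status HIDATA were left out of the total in every setting. Rescaling to the same total turned the log2 folds of 10 uncalled members to above 0: Rpl19 (0.020), Rpl26 (0.0066), Rpl37rt (0.0018), Rpl41 (0.027), Rps24 (0.034), Rps25 (0.00023), Rps26 (0.015), Rps4x (0.023), Rps6 (0.0077) and Rps7 (0.033). The interval of about 19% to either side limits what could be seen.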

Other observations

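Among the 96 tested genes whose symbols mark them as pseudogenes of ribosomal proteins with -ps, the median log2 fold was 0.01. Of these, 44 were lower and 52 higher in ND/WCR. None was called at q under 0.05 in the authors' deposited table, which is near the background of 0.941% over all tested genes. An unadjusted p under 0.05 was listed for 3 of the 96, and for 5.65% of all tested genes. Rpl38-ps2 was the most abundant of those tested, at 605 FPKM in ND/WCR and 583 FPKM in ND/SED, beside 1112 and 1151 FPKM for Rpl38. Rpl21-ps15 had 104 FPKM in ND/WCR and 146 FPKM in ND/SED (log2 fold -0.49, q = 0.231 in the authors' deposited table), beside 174 and 202 FPKM for Rpl21. Among the 217 tested near-identical copies outside the members, 101 were lower and 116 higher, with a median log2 fold of 0.01, whereas 68 of the 77 standard genes were lower; the difference was not tested.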
